A study of Mus musculus with 32 samples.

Results

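Messenger RNA of the gastrocnemius, the large calf muscle, was compared between mutant and control mice killed at Zeitgeber time 6 (ZT6), that is 6 h after lights on and in the middle of the light phase, when mice mostly rest. The mutants carried Sf1-Cre together with Sirt1loxP/loxP, and the controls, labelled only as such, carried the floxed alleles without Cre per the series description. All mice were 10 weeks old and of a mixed genetic background. The comparison uses the 8 libraries of that time, 4 of each genotype, out of 32 libraries that also cover ZT0, ZT12 and ZT18. A gene was included when it reached 1 FPKM (fragments per kilobase of transcript, scaled to the size of the library) in at least 4 of the 8 libraries, which 11228 of 16634 genes did. The sample titles carry separate mouse numbers, and a table column could be tied to its group but not to its mouse. Libraries are therefore numbered 0 to 3 within a group, as in the table, and the same number in both genotypes does not pair them. At ZT6 all mouse numbers of the mutants are below those of the controls, so genotype and order of numbering cannot be told apart there. Mouse numbers of the mutants also rise from ZT0 to ZT18, and those of the controls do not. What the order stands for is not given. Because no group carried Cre without floxed alleles, effects of the Cre transgene and of the deletion cannot be told apart.

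SIRT1 is a deacetylase that uses NAD+ and links the energy state of a cell to transcription. SF1 is a nuclear receptor that marks neurons of the ventromedial hypothalamus, which take part in the control of energy balance and of sympathetic outflow to muscle. It is also made in the adrenal cortex, the gonads and the pituitary, so that an Sf1-driven Cre need not act in the brain alone, whereas skeletal muscle is not among its sites of expression. Muscle has its own clock, in which ARNTL (BMAL1) and CLOCK drive the Per, Cry and Nr1d genes and the output factors Dbp and Tef, and it also follows hormones, above all glucocorticoids, and feeding.

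The 8 libraries were alike in overall profile, with pairwise correlations of log2 values across genes between 0.975 and 0.991. The summed FPKM was 488230 to 516296 in controls and 451179 to 492451 in mutants. Read totals are not part of the table. The steps between low values gave relative depths of 0.936 to 1.11 in controls and 0.967 to 1.26 in mutants. Ckm, the muscle creatine kinase and a defining marker of muscle fibres, was at 19760, 20120, 18240 and 17400 FPKM in the control libraries and 16840, 16770, 18350 and 15690 FPKM in the mutant libraries. The sex-linked genes Xist (0.0247 to 0.0472 FPKM) and Ddx3y (32.6 to 44.2 FPKM) showed the same sex pattern in all 8 libraries. Acta1 and Atp2a1, very abundant genes of muscle fibres, were listed at exactly 0 in 4 and 6 of the 8 libraries, and at 17410 to 21370 FPKM and 10390 to 10830 FPKM in the others, so an exact 0 of an abundant gene was treated as missing. The libraries had been sequenced in 4 pools of 8 samples, whose members are not named in the labels, so that a pool could not enter the fit.

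Nr6a1 and Gm13490 were the genes that differed between the genotypes at ZT6, and both rose in mutants. Nr6a1 encodes an orphan nuclear receptor of germ cells and embryos and lies on chromosome 2 at 38723374 to 38926461 (mm10). Its level was 1.12, 0.969, 1.18 and 1.15 FPKM in the control libraries and 2.29, 2.49, 2.74 and 2.22 FPKM in the mutant libraries. The groups did not overlap, and the mean rose from 1.10 ± 0.0927 to 2.44 ± 0.235 FPKM (SD, n = 4 each). Gm13490, a long intergenic RNA on the same chromosome at 51656966 to 51732009, was at 0.102, 0, 0.0392 and 0.0428 FPKM in the control libraries and 1.39, 2.06, 1.84 and 1.18 FPKM in the mutant libraries, so it was near or at 0 in every control and above 1 FPKM in every mutant. The log2 difference, taken throughout as mutant minus control on log2(FPKM + 1), was 0.71 for Nr6a1 (SE 0.0957) and 1.31 for Gm13490 (SE 0.207). Adjusted p values were 0.000597 and 0.00456 by limma with Benjamini-Hochberg adjustment over 11228 genes, of which these 2 make 0.0178%. Without any 1 of the 8 libraries both still passed. With quantile normalisation Nr6a1 passed (adjusted p = 0.0370) and Gm13490 did not (0.416), and neither passed once trends with expression level and transcript length had been removed (0.157 for both), at log2 differences of 0.59 and 1.17. Both genes were higher in mutants by a similar amount at the other times: the ZT6 difference minus the mean of the other 3 was -0.02 for Nr6a1 (SE 0.110) and -0.04 for Gm13490 (SE 0.239). Both genes lie on chromosome 2, which also carries the Sf1 locus. The part of that position in their levels was not tested. For both genes, effects of the Cre transgene and of the deletion cannot be told apart.

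**Figure D1:**
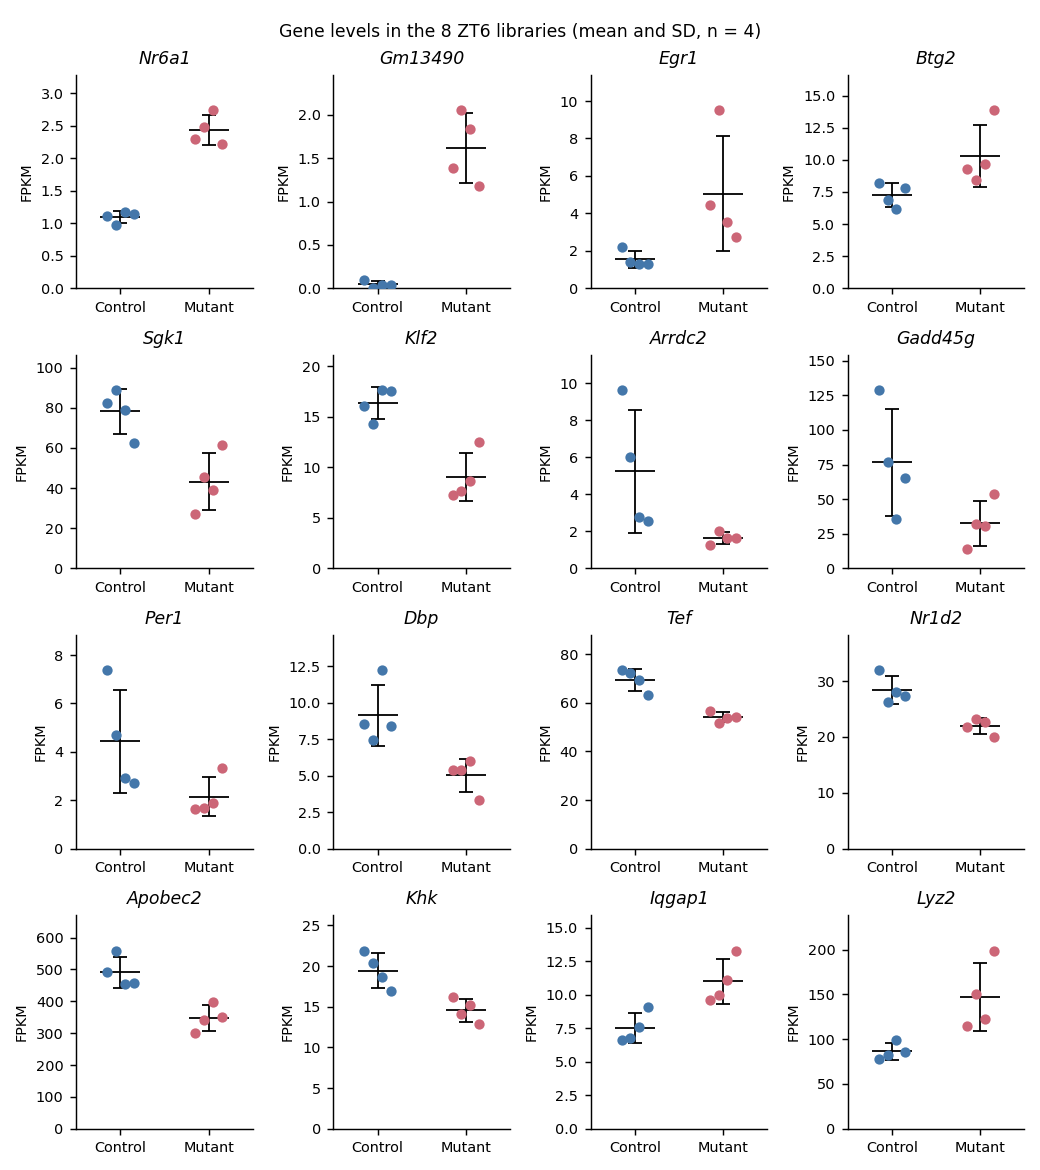
FPKM of 16 genes in each of the 8 ZT6 libraries (points, blue for control and red for mutant), with the group mean (line) and SD (bars, n = 4 each) on axes that start at 0. Nr6a1 and Gm13490 passed the test over all genes, while the other 14 genes did not, and among those the groups overlap for Per1 and Gadd45g only.

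Below the threshold, more genes had lower than higher levels in mutants. At an unadjusted p under 0.05, 809 genes were lower (7.21% of those tested) and 365 higher (3.25%), a split that moved to 468 lower and 414 higher with quantile normalisation and to 450 and 386 with the level and length trends removed. The 4 mutant libraries lay wholly below the 4 controls for 1039 genes (9.25%) and wholly above for 370 (3.3%). With quantile normalisation these became 556 and 403. Leaving out control library 0 or 1 or mutant library 3 lowered the counts at an unadjusted p under 0.05 to 533, 429 and 463 lower genes and to 191, 201 and 147 higher genes. With array weights, which let limma trust some libraries more than others, 247 genes passed at an adjusted p under 0.05, 48 higher and 199 lower. The 8 libraries had weights of 0.977 to 2.18, against a lowest weight of 0.164 for a mutant ZT0 library.

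The shift to lower values followed the expression level. With the genes in 4 equal bins of mean FPKM, the median difference was 0.04 in the lowest bin and 0.00, -0.06 and -0.13 in the next bins. Of the genes in the top bin, above 20.4 FPKM, 83.3% had a lower mean in mutants, against 37.7% in the lowest bin. Among the 10391 genes with a known transcript length, shorter transcripts were also lower, with medians of -0.09, -0.05, -0.03 and 0.01 from the shortest to the longest bin. The median of all genes was -0.04. Whether these trends arose in the muscle or in the libraries was not tested, and list medians are therefore given below also under quantile normalisation and with both trends removed.

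**Figure D2:**
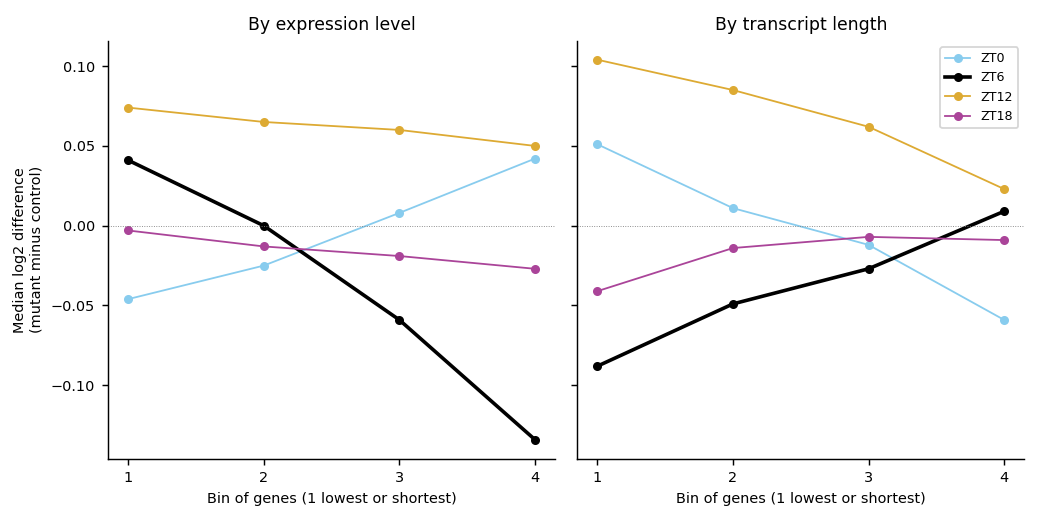
Median log2 difference (mutant minus control) of genes in 4 bins of mean FPKM at ZT6 (left) and of transcript length (right), with a line for each time. At ZT6 (black) the median falls from 0.04 to -0.13 with level and rises from -0.09 to 0.01 with length.

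The 15 genes with the smallest p among those lower in mutants began with Sgk1, Khk and Apobec2. Sgk1, the serum- and glucocorticoid-induced kinase that controls ion transporters and FOXO factors, was at 82.5, 88.7, 79.1 and 62.5 FPKM in the control libraries and 26.9, 45.7, 39.1 and 61.3 FPKM in the mutant libraries. Its groups were separate but only just, since the highest mutant (library 3) lay beside the lowest control (also library 3), and the mean was 78.2 ± 11.2 FPKM in controls and 43.2 ± 14.3 in mutants (n = 4 each; -0.89, SE 0.216). Apobec2, a muscle protein of the cytidine deaminase family, was at 491, 559, 453 and 458 FPKM in the control libraries and 301, 341, 398 and 350 FPKM in the mutant libraries, again without overlap. Khk, the ketohexokinase that starts fructose breakdown, was at 21.9, 20.4, 18.6 and 16.9 FPKM in the control libraries and 16.2, 14.1, 15.2 and 12.9 FPKM in the mutant libraries. The remaining genes of the 15 were Ocel1, 0610009L18Rik, Ppp1r2 (an inhibitor of protein phosphatase 1), Mkks (a chaperonin-like protein of the cilium base), Ppa2 (the mitochondrial inorganic pyrophosphatase), Rnf7 (a subunit of cullin ubiquitin ligases), Mapkapk2 (a kinase downstream of p38), Smim13, Eef1g (a translation elongation factor), Ei24, Id1 (an inhibitor of bHLH factors induced by BMP signals) and Fam174a. All 15 had non-overlapping groups (9.25% of all genes were lower in this way), which follows largely from their choice by p. None of the 15 passed (limma adjusted p = 0.465 for each), whereas all 15 passed with array weights (adjusted p from 0.0207 to 0.0343). Mapkapk2 showed how tight some of these were, with 134, 138, 122 and 129 FPKM in the control libraries and 101, 100.3, 103 and 97.7 FPKM in the mutant libraries. Id1 had the next largest difference after Sgk1 (-0.85, SE 0.240), with 18, 19.7, 22.8 and 24 FPKM in the control libraries and 11, 9.14, 10.3 and 15.2 FPKM in the mutant libraries.

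The 15 genes with the smallest p among those higher in mutants included Egr1, Iqgap1 and Myh9. Egr1, an immediate early factor, was at 2.19, 1.38, 1.3 and 1.29 FPKM in the control libraries and 4.42, 9.51, 3.56 and 2.75 FPKM in the mutant libraries, with library 1 of the mutants standing above the others. Iqgap1, a scaffold that links actin to small GTPases, was at 6.59, 6.79, 7.6 and 9.11 FPKM in the control libraries and 9.59, 9.97, 11.1 and 13.3 FPKM in the mutant libraries, and both groups were highest in library 3. Myh9, the heavy chain of non-muscle myosin, was at 13.2, 13.1, 17.2 and 21.2 FPKM in the control libraries and 21.1, 23.1, 22.8 and 29.9 FPKM in the mutant libraries, where 1 control lay within the mutant range. Lima1, an actin-bundling protein, the membrane-remodelling proteins Ehd3 and Sh3gl1, the complement components C2 and C1ra, the class I histocompatibility gene H2-T23 and Trf (transferrin) were also among the 15. The others were Gatad2b (a subunit of the NuRD complex), Plekha2, Snrnp200 (a helicase of the spliceosome), Os9 (a lectin of protein quality control in the endoplasmic reticulum) and Pdcd4 (an inhibitor of translation). Of these 15, 13 had non-overlapping groups (3.3% of all genes were higher in this way). None passed (limma adjusted p = 0.465 for each) and 14 passed with array weights. H2-T23 and C2 are expressed by immune cells. With the scores of lymphocyte and adipocyte markers in the fit, the difference was 0.31 for H2-T23 (0.64 without them) and 0.58 for C2 (0.71 without them). The part of the macrophage and neutrophil markers, described below, in these differences was not tested. The 30 genes kept their direction under every alternative tried. They were chosen for a small p in these same libraries. Their separate groups, their steady direction and their passing with array weights follow largely from that choice and are no independent check.

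Clock genes downstream of the activators were lower in mutants at ZT6. All 6 output factors had lower means (median -0.28, -0.24 with quantile normalisation and with the trends removed, where 5 of 6 were lower), 2 of them at an unadjusted p under 0.05 and the same 2 without overlap (7.21% and 9.25% of all genes were lower in these ways), and none passed over all genes. Tef, a PAR bZip factor that acts on D-boxes, was at 73.4, 72.2, 69.4 and 63.2 FPKM in the control libraries and 56.5, 51.7, 53.8 and 54.4 FPKM in the mutant libraries. Dbp, its best known relative and a direct target of CLOCK and ARNTL, was at 8.55, 7.41, 12.2 and 8.37 FPKM in the control libraries and 5.37, 5.36, 5.97 and 3.36 FPKM in the mutant libraries. Every mutant was thus below every control for both genes, with log2 differences of -0.36 (SE 0.141) and -0.75 (SE 0.301). The repressor Bhlhe41 was at 17.5, 14.3, 14 and 13.4 FPKM in the control libraries and 11.4, 15.7, 13.1 and 8.3 FPKM in the mutant libraries, where mutant library 1 lay among the controls.

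The nuclear receptors and repressors of the core loop followed the same direction with more overlap. Nr1d2 (REV-ERB beta), which represses Arntl, was at 31.9, 26.2, 28.1 and 27.3 FPKM in the control libraries and 21.7, 23.3, 22.8 and 19.9 FPKM in the mutant libraries, without overlap (-0.36, SE 0.132, limma adjusted p = 0.465). Nr1d1 (REV-ERB alpha) was at 61.9, 51.2, 49.4 and 43.3 FPKM in the control libraries and 38.3, 49.9, 39.5 and 36.7 FPKM in the mutant libraries, so that mutant library 1 lay within the control range. All 4 REV-ERB and ROR receptors had lower means (median -0.25, -0.14 with quantile normalisation). Per1, a repressor that glucocorticoids and neural signals also induce, was at 7.36, 4.69, 2.93 and 2.73 FPKM in the control libraries and 1.65, 1.67, 1.91 and 3.34 FPKM in the mutant libraries. Control libraries 0 and 1 were high here and mutant library 3 lay among the controls. Per3 was at 3.35, 1.91, 3.38 and 2.74 FPKM in the control libraries and 1.8, 1.61, 2.2 and 1.86 FPKM in the mutant libraries. Cry1 and Cry2 differed by -0.07 and -0.01, with the Cry1 value at 0.00 or 0.01 with cell markers as covariates or without control library 1, and Per2 and Ciart were below the filter. The values of the activators overlapped between genotypes, with Arntl at 15.1, 17.4, 13.8 and 14.7 FPKM in the control libraries and 17.6, 15.8, 16.1 and 17.4 FPKM in the mutant libraries and Clock and Npas2 overlapping as well.

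The mean score of each list, taken over its genes after centring each on the 8 libraries, separated the genotypes for 3 of the 4 clock groups. For output factors it lay between 0.11 and 0.22 in controls and between -0.18 and -0.15 in mutants. For repressors the ranges were 0.05 to 0.32 and -0.23 to -0.11. The scores of the activators overlapped. Separate scores were not particular to the clock. They also occurred for complexes I and III of the respiratory chain, ATP synthase and the tricarboxylic acid cycle. Mitochondrial biogenesis factors, mitochondrial ribosomal proteins, genes of muscle excitation and collagens had separate scores as well.

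**Figure D3:**
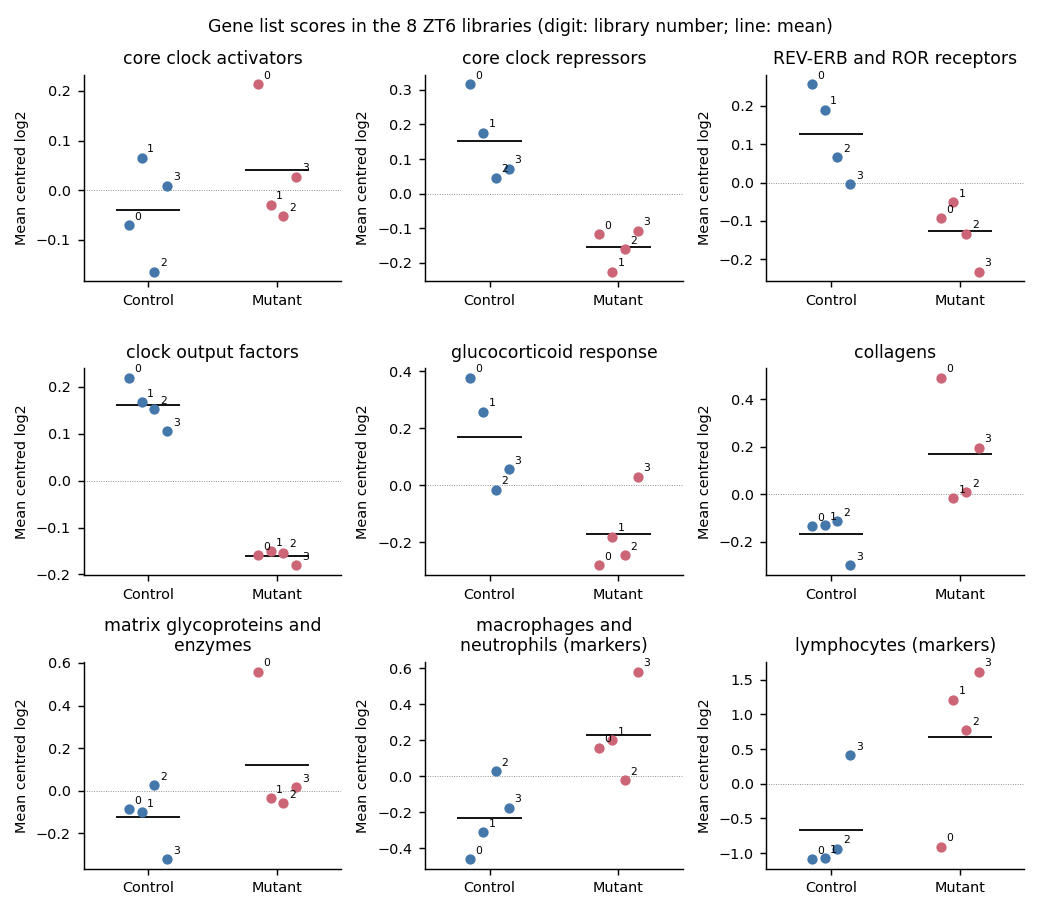
Mean of centred log2(FPKM + 1) over the genes of 9 lists in each of the 8 ZT6 libraries (points labelled with the library number, line at the group mean). The output factors, repressors, nuclear receptors and collagens are separate between the genotypes, as are some lists not shown. Activators, glucocorticoid-responsive genes, matrix genes, macrophage and neutrophil markers and lymphocyte markers overlap.

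Genes that respond to glucocorticoids were mostly lower in mutants. Of 24 tested, 19 had a lower mean (18 with quantile normalisation or with the trends removed), or 79.2%, against 59.4% of all genes. At an unadjusted p under 0.05, 4 were lower (7.21% of all genes were) and 3 were lower without overlap (Sgk1, Arrdc2 and Zbtb16), a share near the 9.25% of all genes, and none passed over all genes. The median was -0.29, against -0.04 for all genes, and lay between -0.35 and, without control library 0, -0.19 over the alternatives. Arrdc2, an arrestin-domain protein, was at 9.61, 6.01, 2.77 and 2.54 FPKM in the control libraries and 1.24, 2.01, 1.64 and 1.65 FPKM in the mutant libraries, and control libraries 0 and 1 stood well above the other controls. Gadd45g, a stress and growth-arrest gene, was at 129, 76.8, 35.4 and 65.2 FPKM in the control libraries and 14, 32.3, 30.9 and 53.4 FPKM in the mutant libraries, again highest in control library 0, with mutant library 3 inside the control range. Pdk4, the kinase that shuts pyruvate out of oxidation in fasting, was at 85.1, 144, 106 and 163 FPKM in the control libraries and 55.3, 67.1, 78 and 86.5 FPKM in the mutant libraries, with a single mutant just above the lowest control. Of these 3 genes, Arrdc2 alone had separate groups. Zbtb16, a zinc finger repressor, was at 11.6, 13.2, 12.6 and 11.7 FPKM in the control libraries and 10.1, 9.38, 9.82 and 10.2 FPKM in the mutant libraries. Other members of the same list did not share this: Fbxo32 was at 44.8, 82.8, 67.1 and 72.7 FPKM in the control libraries and 90.2, 77.8, 88 and 56.5 FPKM in the mutant libraries, and the receptor gene itself, Nr3c1, differed by 0.04. In the list score, control libraries 0 (0.38) and 1 (0.26) were the highest and mutant library 3 (0.03) fell between the other 2 controls.

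Immediate early genes were mixed, with 9 of 19 higher and 10 lower (median -0.03, and 0.02 with quantile normalisation or without mutant library 2). Of the 19, 3 were higher and 1 was lower without overlap, against 3.3% and 9.25% of all genes. Btg2, an antiproliferative gene induced by growth factors and p53, was at 8.2, 6.87, 6.16 and 7.82 FPKM in the control libraries and 9.28, 8.4, 9.69 and 13.9 FPKM in the mutant libraries. Ier2 was at 4.93, 5.08, 5.23 and 5.45 FPKM in the control libraries and 6.87, 8.77, 6.97 and 5.91 FPKM in the mutant libraries. Klf2, a factor that blood flow induces in endothelium and that also keeps lymphocytes quiescent, differed the other way, at 16.1, 14.3, 17.6 and 17.5 FPKM in the control libraries and 7.25, 7.67, 8.69 and 12.5 FPKM in the mutant libraries. The lowest control was thus above the highest mutant for Klf2, and the reverse held for Btg2 and Ier2, yet none of the 3 passed (limma adjusted p = 0.465 for Btg2 and Klf2).

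The 250 bases before the annotated start are shown for 3 of these genes, picked after their values were seen. Btg2 and Klf2 belong to the same class of rapidly induced genes and were apart in opposite directions. Sgk1 had the smallest p among the lower genes. Egr1, the immediate early gene with the smallest p, is not shown. Sequences are from RefSeq (GRCm38.p6), 5′ to 3′ on the strand of the gene, at chr1:134079156-134079405 (minus strand), chr8:72318812-72319061 (plus strand) and chr10:21881934-21882183 (plus strand). Capitals mark a full cyclic AMP response element, TGACGTCA, the site at which CREB factors bind.
Btg2: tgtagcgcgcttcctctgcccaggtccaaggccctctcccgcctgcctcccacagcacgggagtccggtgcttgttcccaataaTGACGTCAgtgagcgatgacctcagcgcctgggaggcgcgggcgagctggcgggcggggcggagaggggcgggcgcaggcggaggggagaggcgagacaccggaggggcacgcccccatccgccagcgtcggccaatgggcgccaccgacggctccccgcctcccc
Klf2: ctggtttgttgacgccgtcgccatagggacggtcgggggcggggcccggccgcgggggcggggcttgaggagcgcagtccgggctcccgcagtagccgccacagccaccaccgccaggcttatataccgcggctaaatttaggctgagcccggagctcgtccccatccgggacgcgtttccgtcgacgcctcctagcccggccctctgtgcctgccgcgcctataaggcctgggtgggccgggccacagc
Sgk1: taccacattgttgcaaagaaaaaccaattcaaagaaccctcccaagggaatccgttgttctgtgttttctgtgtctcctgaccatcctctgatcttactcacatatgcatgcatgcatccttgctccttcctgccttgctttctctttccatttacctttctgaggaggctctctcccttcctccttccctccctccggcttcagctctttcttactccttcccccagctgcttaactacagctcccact
The element begins 166 bases before the Btg2 start, and the other windows hold no match to it or to the E-box CACGTG on either strand. The window of Arrdc2, not shown, holds no match to either. For each gene only the annotated start nearest the outer 5′ end of its locus was used. The Sgk1 locus runs from 21882184 to 21999902, and any starts further inside it were not searched. Of 11228 genes tested, 8411 had a promoter in the table. Motifs in these were counted over a longer window, from 250 bases before to 50 bases after the start. TGACGTCA occurred in 3.35% of these windows, in 2.57% of those of genes higher at an unadjusted p under 0.05 and in 4.19% of those lower. The E-box, the site of CLOCK and ARNTL, occurred in 10.7%, 7.35% and 10.3%. The full palindromic glucocorticoid response element was found in none of the 8411 windows. A pair CC and GG with 6 bases between them, the loose frame of a serum response element, was in 87.2%, 81.2% and 89.2%, and the stricter CArG box in 1.41%, 2.21% and 1.45%. No motif was tested for a difference.

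Mitochondrial genes were lower by a small and even amount in the deposited values, and this amount depended on the scaling. For complex I of the respiratory chain, 35 of 37 subunits had lower means (median -0.16), but 20 of 37 did with quantile normalisation or with the trends removed (medians -0.005 and -0.02). Complex IV (10 of 12 lower, median -0.19, and -0.02 with quantile normalisation) and ATP synthase (13 of 14, -0.17, and -0.03) behaved likewise. The tricarboxylic acid cycle (25 of 27, median -0.16) and complex II (4 of 4, -0.15) had medians of 0.01 with the trends removed, and the proteasome (29 of 30, -0.14) and glycolysis (15 of 16, -0.12) turned to between 0.00 and 0.01 under both. Complex II was at -0.09 without mutant library 3. Complex III with cytochrome c (10 of 10 lower, -0.22) was at -0.07 with quantile normalisation and -0.06 with the trends removed, where 7 of 10 were lower. Genes of fatty acid use (23 of 28 lower, -0.08) turned to 0.02 and 0.04, and lay between -0.15 without control library 0 and -0.02 without control library 3. Median levels of these subunits were far above the 7.94 FPKM of all genes tested, for example 764 FPKM for complex IV and 275 for complex I, and their transcripts were short (670 and 971 bases against 3116).

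Of the genes in the mitochondrial lists, Sdhd had the smallest unadjusted p (limma, 0.00229). Sdhd, which anchors succinate dehydrogenase in the inner membrane, was at 317, 324, 292 and 288 FPKM in the control libraries and 250, 248, 227 and 228 FPKM in the mutant libraries, without overlap (-0.36, SE 0.106). The Sdhd difference was -0.23 with quantile normalisation and -0.19 with the trends removed. Esrra, the nuclear receptor that drives genes of oxidative metabolism, was at 61.4, 61.9, 57.4 and 60.3 FPKM in the control libraries and 48, 46.4, 46.4 and 45.5 FPKM in the mutant libraries, and the NAD+-dependent deacetylase Sirt3 of the mitochondrial matrix at 24.3, 25.5, 24.6 and 24.6 FPKM in the control libraries and 21.4, 21.7, 21.4 and 18.6 FPKM in the mutant libraries. Neither overlapped between genotypes, and none of the 3 passed (limma adjusted p = 0.465 for each). Cycs, which encodes cytochrome c, was at 14.6, 13.2, 11.8 and 9.78 FPKM in the control libraries and 9.92, 11.1, 5.51 and 4.93 FPKM in the mutant libraries, where libraries 2 and 3 of the mutants were low and the others lay within the controls. Of 72 mitochondrial ribosomal proteins, 70 had lower means (median -0.15) and 55 did with quantile normalisation (-0.07), and 14 of 72 were lower without overlap in the deposited values. That share compares with 9.25% of all genes and 21.3% of the genes in the most abundant bin. In the same values the counts were 12 of 37 for complex I, 4 of 10 for complex III and 5 of 12 for complex IV. They were 6 of 14 for ATP synthase, 9 of 27 for the tricarboxylic acid cycle and 5 of 21 for biogenesis factors. Complex II had 1 of 4 and fatty acid use 0 of 28. These list counts were not made under the other scalings.

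Genes of muscle excitation had a median below 0 under every alternative tried. The same held for other lists, among them complexes I, III and IV, ATP synthase and mitochondrial ribosomal proteins. In the list of the T-tubule, sarcoplasmic reticulum and end plate, 19 of 20 had lower means (median -0.19), and 17 of 20 did with quantile normalisation (median -0.09), while without control library 0 the median was -0.13. Kcnj11, the pore of the ATP-sensitive potassium channel, was at 59.3, 61.5, 51 and 49 FPKM in the control libraries and 47.1, 44.8, 40.0 and 39.8 FPKM in the mutant libraries. Jph2, which ties the 2 membrane systems together, was at 282, 278, 242 and 246 FPKM in the control libraries and 218, 227, 202 and 186 FPKM in the mutant libraries, and Cacna1s, the voltage sensor of contraction, at 194, 184, 174 and 165 FPKM in the control libraries and 159, 154, 153 and 153 FPKM in the mutant libraries. The groups did not overlap for any of these, and their limma adjusted p values were 0.465, 0.465 and 0.471. In the list, 5 of 20 were lower without overlap, against 9.25% of all genes and 21.3% of the genes in the most abundant bin. Fast fibre genes (11 of 16 lower, median -0.13) turned to 0.02 with quantile normalisation and were at -0.08 without control library 0. Slow fibre genes (10 of 14 lower, -0.20, and -0.06 with quantile normalisation) overlapped between the genotypes for all 14, and their median was -0.11 without control library 0 and -0.31 without mutant library 3.

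**Figure D4:**
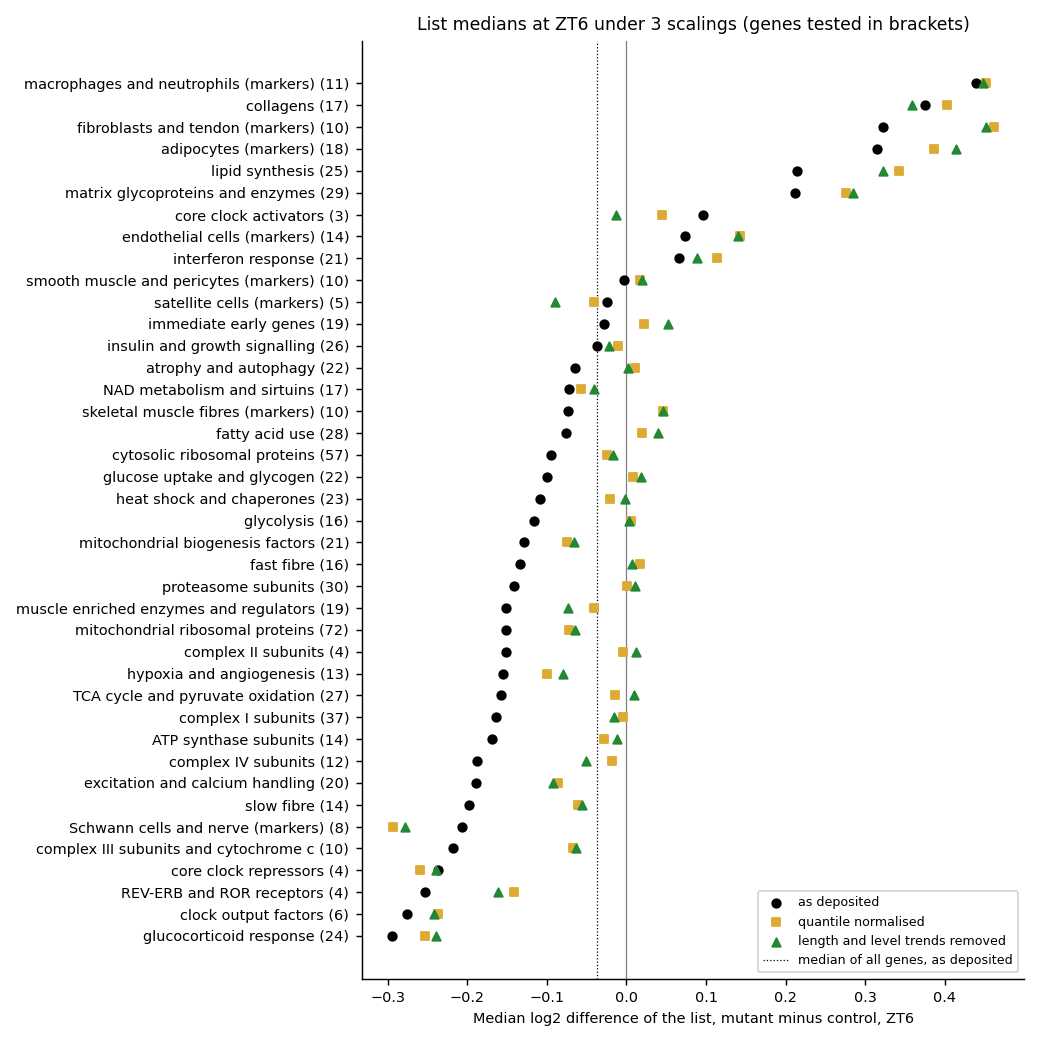
Median log2 difference (mutant minus control) at ZT6 of the gene lists with 3 or more genes tested, apart from lymphocyte markers (1.39), as deposited (black), after quantile normalisation (yellow) and with length and level trends removed (green). Complexes I, II and IV, ATP synthase, the tricarboxylic acid cycle, proteasome and glycolysis lie between -0.19 and -0.12 as deposited. Under the other scalings they lie between -0.05 and 0.01. Complex III and mitochondrial ribosomal proteins stay at -0.07 or -0.06, and fatty acid use and fast fibre genes pass 0. The clock output, clock repressor, glucocorticoid, collagen and matrix lists and the list of macrophages and neutrophils keep their side of 0.

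Connective tissue genes were higher in mutants, most of all in mutant library 0. All 17 collagens had higher means (16 with quantile normalisation or with the trends removed), with a median of 0.37, and 8 of them were higher without overlap (3.3% of all genes were), though none had an unadjusted p under 0.05. Col6a1, which forms the microfibrils around each fibre, was at 36, 33.4, 34.5 and 30.6 FPKM in the control libraries and 54.8, 38.7, 38.8 and 46 FPKM in the mutant libraries. Col6a3, its partner chain, was at 13.3, 12.8, 11.3 and 10.6 FPKM in the control libraries and 20.5, 14, 13.6 and 22.2 FPKM in the mutant libraries, with libraries 0 and 3 of the mutants highest. In contrast the fibrillar Col1a1 was at 146, 146, 182 and 103 FPKM in the control libraries and 386, 156, 158 and 166 FPKM in the mutant libraries, where library 0 alone stood above the controls. Without mutant library 0 the median of the collagens was 0.20, and that of the other matrix genes (27 of 29 higher, median 0.21) was 0.08. Mmp14, the membrane-bound collagenase, was at 6.66, 6.07, 6.3 and 5.38 FPKM in the control libraries and 12.3, 8.09, 7.53 and 8.5 FPKM in the mutant libraries, and Lama2, the laminin chain of the muscle basement membrane, at 9.91, 10.4, 8.15 and 7.67 FPKM in the control libraries and 15.8, 10.8, 10.8 and 13.8 FPKM in the mutant libraries, both without overlap. In the bulk tissue, more cells of a type and more RNA in each of them cannot be told apart. Markers of fibroblasts and tendon moved with these genes: 8 of 10 had higher means, and their summed level was 1014 to 1459 FPKM in controls and 1305 to 2205 in mutants, highest in library 0. Col1a1, Dcn, Fmod and Tnmd stand both among these markers and among the collagen or matrix genes, so the lists are not separate measurements. The part of the markers in the matrix values was not tested.

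Markers of macrophages and neutrophils, taken as a single list, were higher in mutants as well. All 11 tested markers had higher means under each scaling (median 0.44), 3 of them without overlap, against 3.3% of all genes. Lyz2, lysozyme of phagocytes, was at 78.3, 81.9, 99.6 and 85.7 FPKM in the control libraries and 115, 150.3, 123 and 199 FPKM in the mutant libraries, and Csf1r, the receptor that macrophages need to survive, at 6.05, 8.36, 10.2 and 8.74 FPKM in the control libraries and 13.1, 11.9, 10.5 and 16.5 FPKM in the mutant libraries. For Csf1r the lowest mutant (library 2) was close to the highest control (also library 2). Itgam (CD11b) was at 1.37, 1.47, 2.12 and 1.3 FPKM in the control libraries and 2.84, 2.38, 2.2 and 3.66 FPKM in the mutant libraries. The limma adjusted p was 0.465 for each of these 3 genes. The summed level of the 11 markers, of which Lyz2 was a large part, was 153 to 210 FPKM in controls and 228 to 348 in mutants. The list score, in which each marker counts alike, overlapped, with control library 2 at 0.03 and mutant library 2 at -0.02.

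Lymphocyte genes varied widely between libraries of the same genotype. The summed level of the 14 markers was 9.96, 10.6, 13.8 and 59.6 FPKM in controls and 15.1, 121, 81.7 and 161 FPKM in mutants, so mutants 1 to 3 and control 3 were high. All 14 means were higher in mutants (median 1.39), none without overlap. A fit with lymphocyte and adipocyte scores as covariates brings the medians of those 2 lists to about 0 by construction, since the scores are made of the same markers. For other lists it gave medians of 0.37 for collagens, 0.32 for macrophage and neutrophil markers, -0.35 for glucocorticoid-responsive genes and -0.25 for output factors. Interferon-responsive genes (18 of 21 higher, median 0.07) had a median of -0.03 in that fit and 0.14 without mutant library 0, and Psmb8 of the immunoproteasome, at 5.39, 5.48, 6.61 and 8.6 FPKM in the control libraries and 7.16, 14.6, 9.38 and 13.1 FPKM in the mutant libraries, was highest in the same 4 libraries. Adipocyte markers (17 of 18 higher, median 0.31) overlapped for every gene and had a median of -0.03 without mutant library 1 and 0.75 without control library 3. Schwann cell markers were lower for 7 of 8 genes (median -0.21, and -0.37 without mutant library 2). Of the 6 red cell markers, Alas2 alone passed the filter, at 5.4, 7.67, 8.98 and 6.95 FPKM in the control libraries and 3, 5.94, 7.33 and 3.21 FPKM in the mutant libraries.

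Sirt1 itself had overlapping levels in the muscle of both genotypes. Its level was 5.32, 4.6, 5.22 and 5.28 FPKM in the control libraries and 5.71, 4.78, 4.02 and 4.24 FPKM in the mutant libraries (-0.11, exact permutation test, 2-sided, p = 0.314, where 70 arrangements allow no p below 0.0286). Since the deletion was directed at SF1 cells, this level does not check it. Among genes of NAD+ metabolism and the other sirtuins, 14 of 17 had lower means (median -0.07, with 10 of 17 lower under quantile normalisation), with Sirt2 and Sirt3 lower without overlap (2 of 17, against 9.25% of all genes) and Nampt, the rate-limiting enzyme of NAD+ salvage, at 61.7, 74.8, 60.5 and 54.2 FPKM in the control libraries and 59.8, 57.4, 54.7 and 60.4 FPKM in the mutant libraries. Genes of insulin and growth signalling were close to all genes, at a median of -0.04 with 15 of 26 lower and 0 of 26 at an unadjusted p under 0.05, and at 0.03 without mutant library 2.

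Whether a difference was particular to ZT6 was tested as the ZT6 difference minus the mean difference at ZT0, ZT12 and ZT18. No gene passed (0.0% of 11228 by limma at an adjusted p under 0.05), 1700 genes had an unadjusted p under 0.05 (15.1%), and 557 passed with array weights. The 5 genes with the smallest p were Slc25a16, a mitochondrial carrier, Rnf5, a ubiquitin ligase of the endoplasmic reticulum, Sgk1, Rnf7 and Mkks (limma adjusted p = 0.214 for each). In the order of the day from ZT0, Sgk1 differed by 0.33, -0.89, 0.41 and -0.06, and the contrast was -1.11 (SE 0.250). Slc25a16 differed by 0.24, -0.30, 0.31 and 0.09 (contrast -0.51, SE 0.109), with 16.3, 16.9, 15.1 and 14.7 FPKM in the control libraries and 13, 14.5, 12.6 and 10.7 FPKM in the mutant libraries at ZT6. Dbp differed by 0.33, -0.75, 0.80 and 0.33 (contrast -1.24, SE 0.348, adjusted p = 0.214). Egr1 differed by -0.06, 1.15, 0.55 and -0.03. The difference between the genotypes, not the level, was thus lowest or highest at ZT6 for these genes. They were named for a small p at ZT6 or in the contrast, so this follows largely from that choice. The contrast did not pass for any of them.

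The lists varied with time in their own ways. Output factors had medians of 0.01 (ZT0), -0.28 (ZT6), 0.29 (ZT12) and 0.05 (ZT18). Glucocorticoid-responsive genes were at -0.28 at ZT0 and -0.29 at ZT6, and at -0.02 and -0.14 later. Collagens were at -0.21, 0.37, -0.26 and -0.24, and complex I subunits at 0.14, -0.16, 0.03 and -0.05. No test of these list differences between times was made. The level trend also differed between times, with medians in the most abundant bin of 0.04 (ZT0), -0.13, 0.05 and -0.03 (ZT18).

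**Figure D5:**
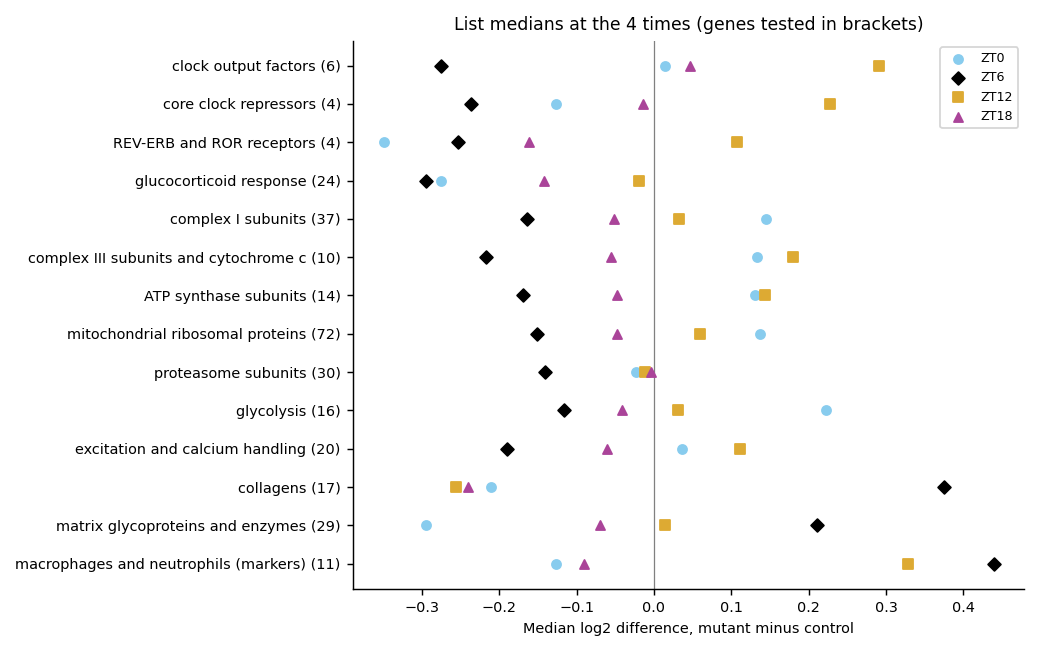
Median log2 difference (mutant minus control) of 14 selected gene lists out of 42 at each of the 4 times, as deposited. Among those shown, the 3 lists of collagens, matrix, and macrophages and neutrophils have their highest median at ZT6 (black diamonds). Of the other 11 shown, 10 have their lowest there, the exception being the REV-ERB and ROR receptors, which were lower at ZT0. Lists not shown differ: slow fibre genes are lowest at ZT12 (-0.37, and -0.20 at ZT6), and adipocyte markers are highest at ZT18 (0.77, and 0.31 at ZT6). With quantile normalisation the ZT6 medians of proteasome and glycolysis move to between 0.00 and 0.01.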

How the data were processed

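Stranded TruSeq mRNA libraries were sequenced from 1 end over 100 cycles, per the labels' protocols, and the reads were placed on build mm10, per the submitters' processing notes. No aligner, quantifier or annotation is given in the sources used here. The authors deposited 1 table of FPKM per gene and library, and depth per library is unknown beyond the relative values given above. The FPKM were used as log2(FPKM + 1), and an exact 0 was set to missing where the gene's median above 0 was at least 10 FPKM (30 values of 11 tested genes). limma 3.58.1 (R 4.3.3) with a trended prior fitted 1 mean for each of 8 groups over 32 libraries, the 24 libraries of other times serving the spread. Calls are at a Benjamini-Hochberg adjusted p under 0.05. The fit was tested on simulated data with independent noise and no level or length trends. That run checks the code and not these calls. Transcript lengths for the length trend were those of GENCODE M21. Genes named are the 2 called, the 15 with the smallest p in each direction (mean of at least 5 FPKM in a group, no exact 0), the 3 with the smallest p of each list, the 5 with the smallest p against the other times, and Sirt1. Other list members named were chosen after their values were seen. The members and the 42 lists were chosen with earlier results of these data known, and no list was tested. The alternatives were quantile normalisation, array weights, fitting the 8 libraries alone, a pseudocount of 0.1, no filter, a mean of at least 5 FPKM, zeros kept, marker covariates, each library left out and, chosen after seeing the data, removal of the length trend and of the length and level trends.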

Additional observations from a re-analysis of the deposited data

Results flagged for a closer look

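In 12 of 154 groups of 4 libraries examined (the 35 genes named for their p or as Sirt1, and the score of every list), 1 library stood apart from the other 3 by more than Dixon's 95% limit, of a kind that chance gives in about 1 in 20 groups. Of the mutant libraries, library 3 was the highest in slow fibre genes (score 0.126, others -0.133 to -0.123). Library 0 was the highest in matrix glycoproteins and enzymes (0.559, others -0.0584 to 0.016) and in fibroblast and tendon markers (0.647, others -0.0626 to -0.0019). It was also the lowest in cytosolic ribosomal proteins (-0.119, others -0.0153 to 0.0056). Of the controls, library 3 was the lowest in collagens (-0.300, others -0.135 to -0.113) and the highest in lymphocyte markers (0.408, others -1.09 to -0.938). Mutant library 3 had a low ATP synthase score (-0.200, others -0.0675 to -0.0405), and control library 3 a low score of mitochondrial ribosomal proteins (-0.010, others 0.1 to 0.107). Of single genes, Egr1 had a high control (2.19 FPKM, others 1.29 to 1.38), Os9 a high mutant (9.98, others 8.34 to 8.50), 0610009L18Rik a high mutant (15.6, others 11.3 to 11.7) and Sirt1 a low control (4.6, others 5.22 to 5.32).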

How the results depend on the processing

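The count of 2 genes at ZT6 was 3 in the fit of the 8 libraries alone (with 2300009A05Rik added), 247 with array weights, 1 with quantile normalisation, 0 with a mean of at least 5 FPKM, where neither gene entered the test, 0 with the length and level trends removed, and 2 under each other alternative, any left-out library included. The count of genes particular to ZT6 was 0 everywhere but with array weights (557). Counts at an unadjusted p under 0.05 were 754 higher and 1689 lower with the 8 libraries alone, 890 and 1894 with array weights, 624 higher with no filter, 124 higher with a mean of at least 5 FPKM, and 171 and 533 with marker covariates. They were 468 lower with quantile normalisation and 450 lower with the length and level trends removed, and ranged from 147 to 459 higher and from 429 to 956 lower without 1 library. Genes lower without overlap numbered 556 with quantile normalisation and 570 with both trends removed. The causes were not tested. Directions reversed in 13 cases over 149 named genes: Clock with array weights (-0.0025), without 1 library (-0.0566 to 0.0562, reversed without control library 2, -0.0257, or mutant library 0), with the length trend (-0.024) or both trends removed (-0.0125); Npas2 (-0.0803), Sdhc (0.0334) and Pkm (0.0009) with both trends removed; Sdhc (0.0021), Pkm (0.0172) and Mylpf (0.0267) with quantile normalisation; and Cry1 with covariates (0.0012) or without control library 1 (0.0083, in a range from -0.1633 without 1 library). The Sirt1 difference kept its sign, from -0.19 to -0.05. No paired analysis was possible because the library numbers name no mouse and pair no samples. Read totals are unknown, so no floor could be set for levels near 0.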
